A study of Mus musculus with 5 samples.

Results

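The mouse liver genes encoding UDP-glucuronosyltransferases, cytosolic sulfotransferases and glutathione transferases were examined after treatment with CSF1-Fc. They were collected by symbol (*Ugt1* to *Ugt3*, *Sult*, *Gst* and *Mgst* names) from array rows that carry a single gene symbol, taking the row with the highest mean log2 intensity where a gene had several. This gave 44 of 18820 genes: 9 UDP-glucuronosyltransferases, 15 sulfotransferases and 20 glutathione transferases, the microsomal *Mgst* genes counted with the last. A further 19 genes of these families had no row of their own and appear only on 15 rows shared by several symbols, which are described apart. The CSF1-Fc group was 3 adult C57BL/6 mice given a fusion of pig colony-stimulating factor 1, the growth factor of the macrophage lineage, with an immunoglobulin Fc region. It was injected subcutaneously at 1 mg/kg on 4 consecutive days, with the livers taken on day 5. The PBS group was 2 adult C57BL/6 mice injected with phosphate-buffered saline on the same schedule. Each liver was run on its own Affymetrix Mouse Gene 1.1 ST array, so *n* = 3 for CSF1-Fc and *n* = 2 for PBS throughout.

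These enzymes carry out the conjugation step of detoxification. UDP-glucuronosyltransferases sit in the endoplasmic reticulum and attach glucuronic acid from UDP-glucuronic acid to steroids, bile acids, bilirubin and drugs. Sulfotransferases are cytosolic and move sulfate from the donor PAPS to phenols, steroids, catecholamines and bile acids, while glutathione transferases join glutathione to electrophiles and also reduce peroxides. In the liver the hepatocyte holds most of this activity, and the products leave through transporters into bile or blood.

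Levels are log2 of the deposited intensity. Median intensities were 31.1 to 33 on the 5 arrays, and correlations over all rows were 0.983 to 0.990 between CSF1-Fc arrays, 0.991 between the PBS arrays and 0.960 to 0.973 across the groups. All 19 macrophage markers and 11 of 13 Kupffer cell markers (all but *C6* and *Id3*) were higher in CSF1-Fc livers, with median log2 fold changes of 2.52 and 1.81. The summed intensity of the macrophage markers was 29055 to 31718 in CSF1-Fc livers and 5612 to 6185 in PBS livers. Of 15 hepatocyte markers none was higher, *Asgr2* and *Hpd* were lower and 13 did not pass (limma), with a median of -0.41, and at an unadjusted p under 0.05 the counts were 0 higher and 11 lower. Their summed intensity was 61397 to 68970 in CSF1-Fc livers and 77632 to 81747 in PBS livers, so these ranges did not overlap. *Alb*, which defines the hepatocyte, had a log2 fold change of 0.03 and no array stood apart for it. It was the brightest of these markers, with means of 13.26 in CSF1-Fc and 13.22 in PBS livers. Whether a change is compressed at so high a level was not tested. Another list, 26 liver secreted proteins that shares some of these genes, had none higher or lower and a median of -0.12. At an unadjusted p under 0.05 in limma, 1 of the 26 was lower and 0 were higher. The summed intensity of this list was 153571 to 167074 in CSF1-Fc livers and 173065 to 173396 in PBS livers. Of 11 neutrophil markers 9 were higher (median 1.69), 2 of them on rows of mean log2 intensity under 5. The paper saw no infiltration of the liver by neutrophils in sections and reported more neutrophils in the blood. The part of blood in these values was not tested. Of 8 cholangiocyte markers 0 passed (median -0.18, with 1 lower at an unadjusted p under 0.05). Only 2 of the 8 had a mean log2 intensity of at least 5, so a change could be missed. The part of the shift in cell content in the values below was not tested. In whole liver a smaller share of hepatocyte RNA cannot be told apart from less of a transcript per hepatocyte.

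Of the 44 genes, 7 were lower in CSF1-Fc livers, none was higher and 37 did not pass the test (limma, Benjamini-Hochberg adjustment over all 35556 rows, adjusted p under 0.05). The 7 were *Sult5a1*, *Sult2a8*, *Sult1d1*, *Ugt3a1*, *Ugt2b38*, *Ugt2b5* and *Gstt3*. That is 15.9% of the group, where 3.95% of all genes were lower and 8.34% were higher. These counts use a single row per gene and leave out the shared rows. Among the rows left out, a dimmer row of *Gstm3* was higher (log2 fold change 1.25, limma adjusted p = 0.0067). Of the rows sharing *Gsta1* and *Gsta2*, those at 1.37 and 1.44 were higher. The rows shared by *Ugt3a1* and *Ugt3a2* were lower (-0.86, -0.85 and -0.61). The log2 fold change was negative for 32 of the 44 and positive for 12. Over all 18820 genes it was negative for 11651 and positive for 7169. The median was -0.21 for the 44 and -0.08 for all genes. At an unadjusted p under 0.05 the counts among the 44 were 15 lower and 2 higher (*Gstm3* and *Mgst3*). Every CSF1-Fc array lay below both PBS arrays for 24 genes (54.5%; 29.3% of all genes) and above both for 7 (15.9%; 18.2% of all genes), and the groups overlapped for the remaining 13. Among the 24 genes with a mean log2 intensity of at least 8, 5 were lower, beside 9.58% of all genes that bright, and none was higher, beside 9.39%.

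The 3 families are set side by side here by their counts and medians, and the difference between families was not tested. All 9 UDP-glucuronosyltransferase genes had a negative log2 fold change, from -1.29 to -0.22 with a median of -0.69, and 3 were lower. They include by symbol *Ugt3a1* (-1.29), whose human counterpart uses another sugar donor. The lowest value of the rest was -1.04 (*Ugt2b38*). Of the 15 sulfotransferase genes 3 were lower and the median was -0.13. The sulfotransferases held most of the dim genes, since 9 of the 15 had a mean log2 intensity under 5 and log2 fold changes of only -0.29 to 0.06, and the other 6 had a median of -0.76. The 20 glutathione transferase genes ran both ways, with 11 negative and 9 positive values, 1 gene lower and a median of -0.16. The count of genes passing moved with the array set and the settings, and no gene that passed changed sign. With each mouse left out in turn it was 1 to 8 lower. Leaving out PBS replicate 1 gave 2 lower, and leaving out PBS replicate 2 gave 1. For CSF1-Fc replicates 1, 2 and 3 the counts were 4, 6 and 8. Adjusted over rows with a single symbol only, 12 were lower and 2 (*Gstm3* and *Mgst3*) were higher.

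**Figure D1:**
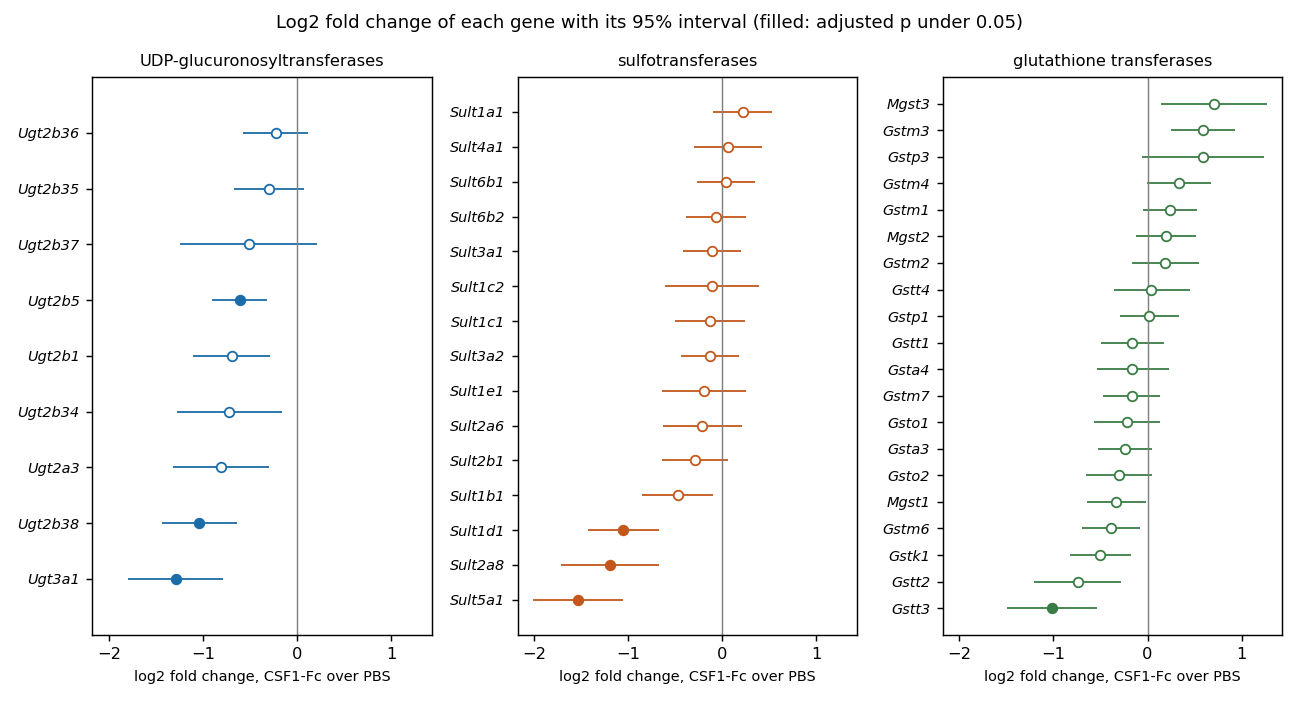
Log2 fold change (CSF1-Fc over PBS, horizontal axis) of each of the 44 genes by enzyme family, with its 95% interval from limma; filled points passed at an adjusted p under 0.05. All 9 UDP-glucuronosyltransferase genes lie left of 0, whereas the 20 glutathione transferase genes run from -1.01 (*Gstt3*) to 0.71 (*Mgst3*).

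*Ugt3a1*, a UDP-glycosyltransferase whose human counterpart uses UDP-N-acetylglucosamine as its sugar donor, had the largest change of its family. Its log2 intensity was 9.48, 9.03 and 9.52 in CSF1-Fc livers and 10.44 and 10.83 in PBS livers. The groups were well separated, by more than the spread within either. The log2 fold change was -1.29 (SE 0.21, limma adjusted p = 0.0141), which is 2.45-fold lower. Without PBS replicate 2 the call was lost (limma adjusted p = 0.115). There were 3 more rows shared by *Ugt3a1* and its neighbour *Ugt3a2*, with log2 fold changes of -0.86, -0.85 and -0.61, all lower (limma adjusted p = 0.0274, 0.0374 and 0.0489). None of these calls held when PBS replicate 1 (0.0925 to 0.21), PBS replicate 2 (0.211 to 0.271) or CSF1-Fc replicate 1 (0.0899 to 0.148) was left out. When CSF1-Fc replicate 2 was left out, the rows at -0.85 and -0.61 were at 0.0505 and 0.0873.

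The *Ugt2b* enzymes glucuronidate steroid hormones, bile acids and many drugs. *Ugt2b38* was at 9.02, 8.79 and 8.94 in CSF1-Fc livers, against 9.76 and 10.14 in PBS livers. Its log2 fold change was -1.04 (SE 0.16, limma adjusted p = 0.0133), and of the 5 mice left out in turn only PBS replicate 2 ended the call (limma adjusted p = 0.109). *Ugt2b5* varied little within either group, at 10.46, 10.48 and 10.46 in CSF1-Fc livers and 11.11 and 11.03 in PBS livers. Its change was smaller, at -0.61 (SE 0.12, limma adjusted p = 0.0293), and it did not pass without PBS replicate 1 (0.196), PBS replicate 2 (0.17), CSF1-Fc replicate 1 (0.119) or CSF1-Fc replicate 2 (0.0563). In both genes every CSF1-Fc array lay below both PBS arrays.

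Another 6 UDP-glucuronosyltransferase genes did not pass. *Ugt2b1* was at 11.42, 11.23 and 11.68 in CSF1-Fc livers and 12.09 and 12.19 in PBS livers, a log2 fold change of -0.69 (SE 0.17, limma adjusted p = 0.055). *Ugt2a3* was at 10.11, 10.04 and 10.64 in CSF1-Fc livers and 11.00 and 11.14 in PBS livers, a log2 fold change of -0.81 (SE 0.21, limma adjusted p = 0.0696). The groups did not overlap for either, and both passed when CSF1-Fc replicate 3, their highest CSF1-Fc array, was left out (limma adjusted p = 0.0281 for *Ugt2b1* and 0.0142 for *Ugt2a3*). *Ugt2b34* followed with -0.72 (SE 0.23, limma adjusted p = 0.126), where CSF1-Fc replicate 2 stood low at 10.59 beside 11.23 and 11.26 and the PBS arrays were at 11.66 and 11.83. *Ugt2b35* (-0.30) and *Ugt2b36* (-0.22) had the smallest values, with CSF1-Fc arrays still below both PBS arrays. *Ugt2b37* was the single gene of the family whose groups overlapped, at 7.20, 6.37 and 6.23 in CSF1-Fc livers and 7.22 and 7.01 in PBS livers (-0.51, SE 0.30).

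The 7 *Ugt2b* genes and *Ugt2a3* lie side by side on chromosome 5 next to 3 sulfotransferase genes. In the RefSeq gene order they run *Ugt2b34*, *Ugt2b1*, *Ugt2b35*, *Ugt2b36*, *Ugt2b5*, *Ugt2b37*, *Ugt2a3*, *Ugt2b38*, *Ugt2a1*, *Ugt2a2*, *Sult1b1*, *Sult1d1* and *Sult1e1*. Of these 13 protein-coding genes 11 have a row of their own. All 11 had a negative log2 fold change, from -1.05 in *Sult1d1* to -0.19 in *Sult1e1*, as did 11651 of all 18820 genes. Of the 11, 3 passed (*Ugt2b5*, *Ugt2b38* and *Sult1d1*), and they do not adjoin one another. The row shared by *Ugt2a1* and *Ugt2a2*, which are known mainly from the nasal epithelium, was dim on every array (3.23 to 3.41 in CSF1-Fc livers and 3.33 to 3.46 in PBS livers).

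**Figure D2:**
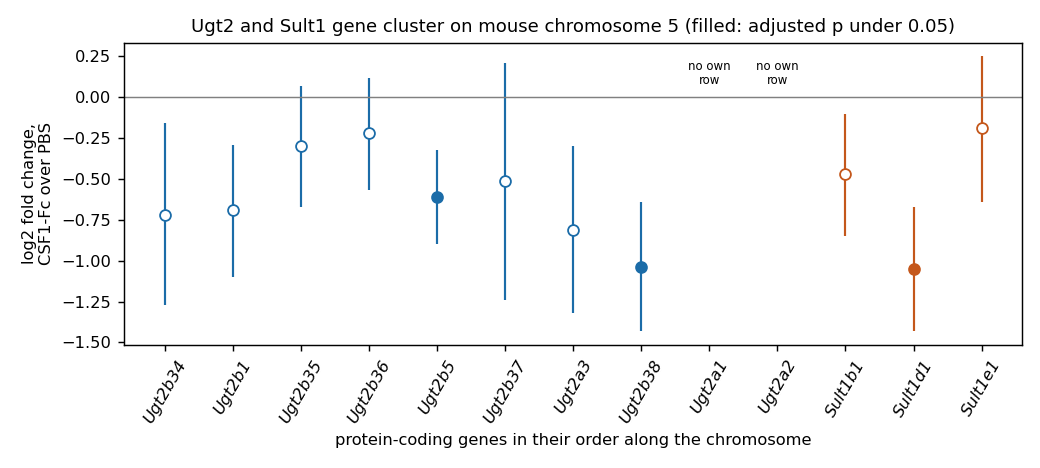
Log2 fold change (CSF1-Fc over PBS, vertical axis) with its 95% interval for the genes of the chromosome 5 cluster in their order, UDP-glucuronosyltransferases in blue and sulfotransferases in orange; filled points passed. The 11 measured genes lie below 0, and the intervals of *Ugt2b35*, *Ugt2b36*, *Ugt2b37* and *Sult1e1* cross it.

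The genes of this cluster arose by duplication, and 3 of them, *Ugt2b38*, *Ugt2b5* and *Ugt2b37*, have promoters more alike than those of the other *Ugt2b* pairs. Their RefSeq windows (GRCm38.p6) are shown because *Ugt2b38* and *Ugt2b5* were lower and *Ugt2b37*, with log2 intensities scattered over its groups, did not pass. Each runs from 250 bases before the start of transcription to 50 after it and is written on the strand of the gene, which is the minus strand in each. The window of *Ugt2b38* is chr5:87424154-87424453, that of *Ugt2b5* chr5:87140291-87140590 and that of *Ugt2b37* chr5:87254739-87255038. Capitals mark bases that are not matched in the alignment with *Ugt2b38*, 39 in *Ugt2b5* and 27 in *Ugt2b37*.
Ugt2b38: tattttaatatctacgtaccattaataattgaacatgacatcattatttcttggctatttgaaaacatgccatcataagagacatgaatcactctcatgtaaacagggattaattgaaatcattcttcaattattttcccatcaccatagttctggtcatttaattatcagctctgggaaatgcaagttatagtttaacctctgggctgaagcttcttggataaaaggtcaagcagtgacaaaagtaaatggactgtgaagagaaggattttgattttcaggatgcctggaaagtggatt
Ugt2b5: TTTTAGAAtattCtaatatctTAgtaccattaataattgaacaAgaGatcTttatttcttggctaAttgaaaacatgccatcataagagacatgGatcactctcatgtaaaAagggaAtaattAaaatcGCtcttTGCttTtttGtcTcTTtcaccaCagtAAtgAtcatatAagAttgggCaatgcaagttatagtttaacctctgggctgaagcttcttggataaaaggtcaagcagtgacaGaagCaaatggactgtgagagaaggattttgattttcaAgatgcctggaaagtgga
Ugt2b37: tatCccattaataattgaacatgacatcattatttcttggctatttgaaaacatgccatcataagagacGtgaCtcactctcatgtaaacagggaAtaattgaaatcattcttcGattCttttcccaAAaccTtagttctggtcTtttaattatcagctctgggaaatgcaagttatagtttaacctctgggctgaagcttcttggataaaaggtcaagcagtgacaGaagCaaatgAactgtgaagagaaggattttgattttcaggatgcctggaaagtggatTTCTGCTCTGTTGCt
With gaps counted, *Ugt2b38* was identical to *Ugt2b5* at 84.2% of aligned positions and to *Ugt2b37* at 86.9%, and *Ugt2b5* to *Ugt2b37* at 76.2%. The other pairs of *Ugt2b* windows were at 46.3% to 63.9%. Genes of such close descent can also share probe sequence, so the rows of the *Ugt2b* genes may not be wholly independent of each other.

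Among the sulfotransferases, *Sult5a1*, whose substrates are little known, had the largest change of all 44 genes. Its log2 intensity was 6.45, 6.66 and 6.07 in CSF1-Fc livers and 8.0 and 7.86 in PBS livers. No CSF1-Fc array came within a log2 unit of a PBS array, and the log2 fold change was -1.53 (SE 0.20, limma adjusted p = 0.00553), or 2.90-fold lower. It was the single gene still called without PBS replicate 2 (limma adjusted p = 0.0443), and without PBS replicate 1 it was at 0.0536.

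*Sult2a8*, a liver enzyme that sulfates bile acids in the mouse, was at 9.93, 9.81 and 10.47 in CSF1-Fc livers and 11.27 and 11.25 in PBS livers. CSF1-Fc replicate 3 was nearest to the PBS arrays, which hardly differed from each other. The log2 fold change was -1.19 (SE 0.21, limma adjusted p = 0.0207), and the call was lost without PBS replicate 1 (0.119), PBS replicate 2 (0.135) or CSF1-Fc replicate 1 (0.0876). *Sult1d1*, which sulfates dopamine and other catecholamines, was at 9.32, 9.19 and 9.55 in CSF1-Fc livers and 10.49 and 10.31 in PBS livers. It was 2.07-fold lower (log2 fold change -1.05, SE 0.16, limma adjusted p = 0.0108), with groups far apart, and did not pass without PBS replicate 1 (0.0941), PBS replicate 2 (0.0665) or CSF1-Fc replicate 1 (0.0554).

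The phenol sulfotransferase *Sult1a1*, a major form in the liver, went the other way in sign. It was at 9.67, 9.84 and 9.86 in CSF1-Fc livers and 9.61 and 9.53 in PBS livers, a log2 fold change of 0.22 that did not pass (SE 0.13, limma adjusted p = 0.393). *Sult1b1*, which sulfates thyroid hormones, was at 7.31, 7.67 and 7.58 in CSF1-Fc livers and 8.06 and 7.92 in PBS livers (-0.47, SE 0.16, limma adjusted p = 0.13). *Sult1c2* overlapped between groups (-0.11). The remaining 9 sulfotransferase genes were the dim ones: *Sult2b1* (-0.29), a cholesterol sulfotransferase, *Sult2a6*, *Sult1e1*, the estrogen sulfotransferase, *Sult1c1*, *Sult3a1*, *Sult3a2* (-0.13), *Sult4a1* (0.06), *Sult6b1* and *Sult6b2* (-0.07). No difference was detectable at these intensities, where an array has little range below the values seen, and none is shown to be absent.

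The glutathione transferase that passed was *Gstt3*, of the theta class. It was at 6.70, 6.20 and 6.47 in CSF1-Fc livers and 7.64 and 7.29 in PBS livers, with no overlap. The log2 fold change was -1.01 (SE 0.20, limma adjusted p = 0.0273), or 2.02-fold lower, and the call was lost without PBS replicate 1 (0.174), PBS replicate 2 (0.085) or CSF1-Fc replicate 3 (0.0537). Its relative *Gstt2* was at 7.22, 6.96 and 7.05 in CSF1-Fc livers and 7.55 and 8.08 in PBS livers (-0.74, SE 0.19, limma adjusted p = 0.069). *Gstt1* was at -0.16 and did not pass, and *Gstt4* was dim (0.04).

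**Figure D3:**
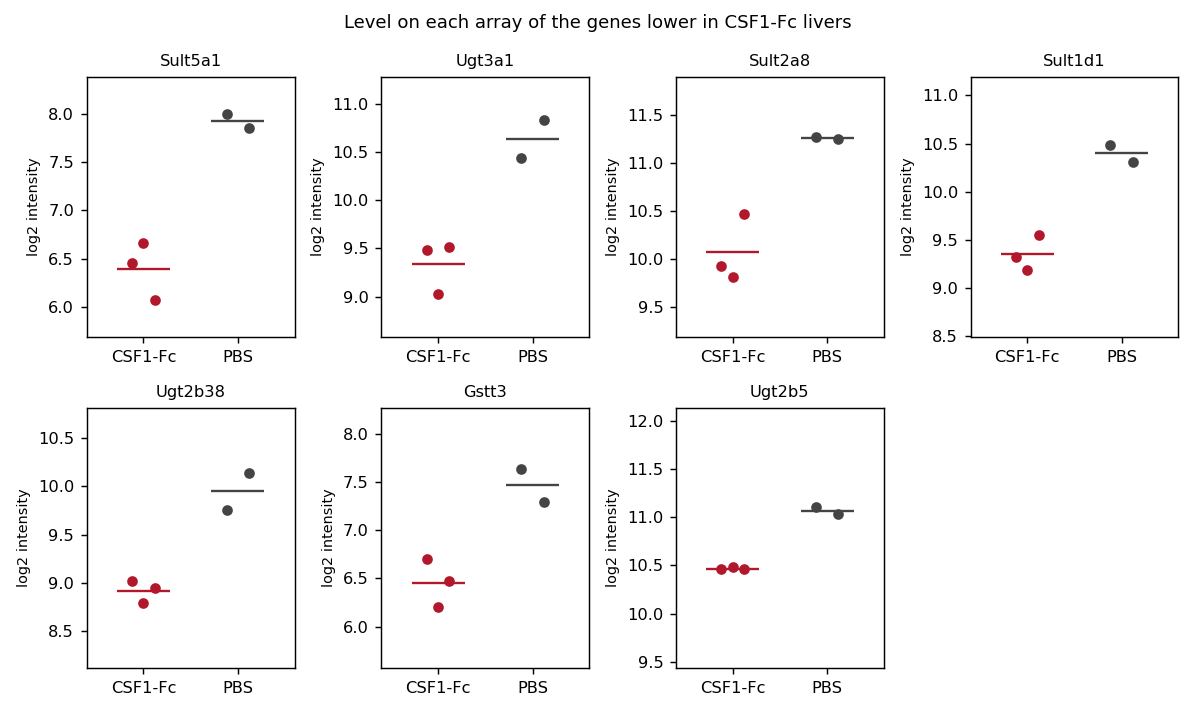
Log2 intensity on each array (vertical axis, a separate scale of equal span for each gene) of the 7 genes lower in CSF1-Fc livers; each point is the liver of 1 mouse and the bar is the group mean. In every panel the 3 CSF1-Fc livers (red) lie below both PBS livers (grey), with the narrowest gap in *Ugt2b5*.

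The mu class, which is large in the mouse and handles epoxides and many carcinogens, was split in sign. *Gstm3* had the largest positive value of the class, at 11.23, 10.95 and 11.01 in CSF1-Fc livers and 10.44 and 10.51 in PBS livers. The groups were apart, but with a log2 fold change of 0.59 (SE 0.14) the limma adjusted p was 0.0552. A dimmer row of the same gene was higher, at 10.95, 10.58 and 10.54 in CSF1-Fc livers and 9.38 and 9.49 in PBS livers (log2 fold change 1.25, SE 0.17, limma adjusted p = 0.0067). The rows of *Gstm3* therefore shared a direction and differed in size by more than 1 SE of either, and the dimmer row did not pass without PBS replicate 1 (0.0631) or PBS replicate 2 (0.0548). *Gstm4* (0.33, limma adjusted p = 0.221) and *Gstm1* (0.24, limma adjusted p = 0.298) also had each CSF1-Fc array above both PBS arrays. *Gstm6* (-0.39, limma adjusted p = 0.13) and *Gstm7* (-0.17) had each CSF1-Fc array below both, and *Gstm2* overlapped (0.19). Mu-class genes are related in sequence, so signal may be divided between their rows in a way the values do not show.

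**Figure D4:**
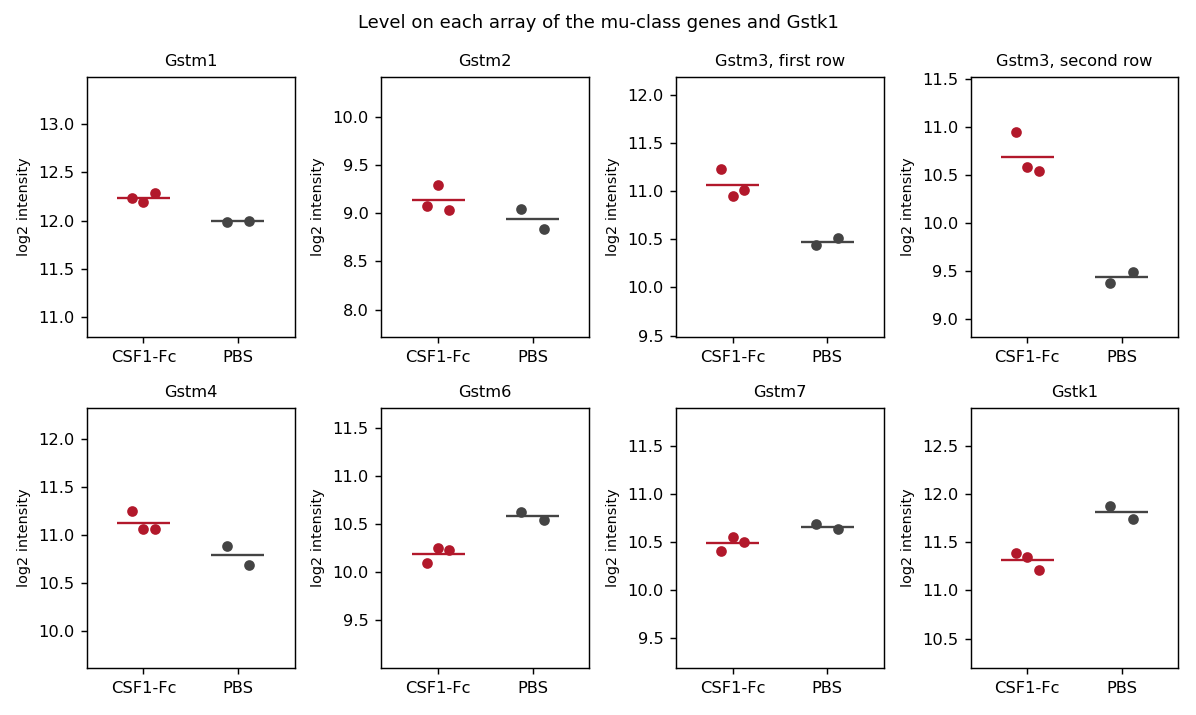
Log2 intensity on each array (vertical axis, a separate scale of equal span for each panel) of the mu-class genes, both rows of *Gstm3*, and *Gstk1*; each point is the liver of 1 mouse and the bar is the group mean. CSF1-Fc livers (red) lie above the PBS livers (grey) for *Gstm1*, *Gstm3* and *Gstm4* and below them for *Gstm6*, *Gstm7* and *Gstk1*.

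In the other classes no gene passed. *Gstk1*, the kappa enzyme of mitochondria and peroxisomes, was at 11.39, 11.35 and 11.21 in CSF1-Fc livers and 11.88 and 11.74 in PBS livers (-0.50, SE 0.13, limma adjusted p = 0.075). *Gstp1*, of the pi class, did not separate the groups, at 12.84, 12.93 and 12.77 in CSF1-Fc livers and 12.89 and 12.77 in PBS livers. Its log2 fold change was 0.02, with a 95% interval of -0.29 to 0.33. The related row of *Gstp3* had a log2 fold change of 0.59 (SE 0.27, limma adjusted p = 0.252) and rested mainly on CSF1-Fc replicate 2, at 8.73 beside 7.93 and 7.96, with PBS livers at 7.74 and 7.48.

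*Mgst1*, the abundant membrane-bound enzyme of the endoplasmic reticulum and mitochondria, was at 12.29, 12.37 and 12.24 in CSF1-Fc livers and 12.70 and 12.56 in PBS livers (-0.33, SE 0.13, limma adjusted p = 0.185). *Mgst3*, a membrane glutathione peroxidase and transferase, was at 6.62, 6.98 and 6.51 in CSF1-Fc livers and 6.30 and 5.68 in PBS livers. Its log2 fold change of 0.71 was the highest of the 44 and did not pass (SE 0.23, limma adjusted p = 0.131), and its PBS arrays lay further apart than its CSF1-Fc arrays. *Mgst2* was dim (0.20). The alpha enzymes *Gsta3* (-0.24, SE 0.12), which conjugates aflatoxin epoxide in the mouse, and *Gsta4* (-0.16), which clears the lipid peroxidation product hydroxynonenal, and the omega enzymes *Gsto1* (-0.22) and *Gsto2* (-0.30) stayed within 0.30 log2 units.

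The shared rows added the genes that could not be named singly. A bright row of 8 *Ugt1a* symbols, which include the bilirubin-conjugating form, was at 9.99, 9.93 and 10.26 in CSF1-Fc livers and 10.52 and 10.54 in PBS livers. The groups did not overlap, and its log2 fold change of -0.47 did not pass (SE 0.15, limma adjusted p = 0.12). Positive values came from 4 rows that share the alpha-class symbols *Gsta1* and *Gsta2* with predicted copies, at 1.15 to 1.44, and 2 of them were higher (limma adjusted p = 0.0355 and 0.0386). On the row with the value of 1.44 the log2 intensity was 9.83, 9.51 and 8.90 in CSF1-Fc livers and 8.24 and 7.72 in PBS livers. The CSF1-Fc arrays were spread widely and lay above both PBS arrays. Both calls were lost without PBS replicate 1 (0.0848 and 0.0966), PBS replicate 2 (0.227 and 0.242), CSF1-Fc replicate 1 (0.0991 and 0.0901) or CSF1-Fc replicate 2 (0.0747 and 0.0758). The 4 rows carry overlapping sets of copies and are not 4 independent measurements. The rows shared by *Gstp1* and *Gstp2* (0.15 and 0.17), by *Gstm5* (0.08), by *Sult2a1*, *Sult2a2* and *Sult2a4* (0.15 and -0.21) and by *Gstz1* with a gene outside the family (-0.43, limma adjusted p = 0.117) did not pass.

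Promoter windows of the same 300 bases were found for 41 of the 44 genes (52 windows, all except *Sult4a1*, *Gstt2* and *Gsta4*) and searched on both strands for 4 short motifs. The core of the antioxidant response element, which NRF2 binds with small MAF proteins, was searched as TGACNNNGC. It was in 3 of the 52 windows (5.77%), where 12.4% of all 32851 windows hold it. The letters GTTAATNAT, part of the site of the hepatocyte factor HNF1, were in 2 windows (3.85% beside 0.801% of all), those of *Sult1d1* and *Sult2a6*. CAAAGTCCA, a site of HNF4, was in the window of *Sult1b1* alone (0.475% of all windows), and GCGTG, the core bound by the aryl hydrocarbon receptor, was in 9 windows of 7 genes (17.3% beside 32.4% of all). The stretches below show the match in *Sult1d1*, which was lower, and the antioxidant-element matches, which stand in 3 glutathione transferase genes that did not pass. Capitals mark the matched letters.
Sult1d1: ccactgatcaGTTAATAATtgactaagagt
Gsta3: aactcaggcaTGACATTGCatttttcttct
Gstm7: tctgaagaccTGACAAAGCgaagccaatcc
Mgst1: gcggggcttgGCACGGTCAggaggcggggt
The first base of the match is 79 bases before the start in *Sult1d1* (window chr5:87568957-87569256, minus strand) and 121 before it in *Gsta3* (chr1:21240335-21240634, plus strand). It is 129 before the start in *Gstm7* (chr3:107931565-107931864, minus strand) and 56 before it in *Mgst1* (chr6:138140277-138140576, plus strand), where the match reads on the opposite strand. A match of so few letters describes the sequence and is not evidence of a bound site.

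Genes that supply the sugar, sulfate and glutathione, that act beside the transferases, that transport conjugates and bile salts or that regulate them were taken as 8 lists of 118 different genes. Of these 12 were higher (10.2%, where 8.34% of all genes were higher) and 18 lower (15.3%, where 3.95% of all genes were lower). Many of the list genes are bright. Among all genes with a mean log2 intensity of at least 8, 9.39% were higher and 9.58% lower. Where no gene of a list was higher, none had a positive value at an unadjusted p under 0.05 in limma either, and where none was lower, 1 had a negative value at that level (*Slc35d1*, -0.68). In the list of UDP-glucuronic acid supply and glucuronide turnover, 2 of 8 genes were higher and none lower, with a median of 0.07. The 8 include *Ugcg* (-0.12) and *Ugt8a* (-0.01), which act on ceramide and did not pass. *Gusb*, the lysosomal enzyme that removes glucuronic acid, had a log2 fold change of 1.05 (limma adjusted p = 0.00391) and *Uxs1*, which turns UDP-glucuronic acid into UDP-xylose, 0.68 (limma adjusted p = 0.0438). *Ugdh*, which makes the sugar donor, was at 0.15 and did not pass. For sulfation, 1 of 10 genes was lower and none higher (median -0.22): *Suox*, the mitochondrial sulfite oxidase that yields sulfate, at -1.32 (limma adjusted p = 0.00338). *Papss2*, a PAPS synthase, was at -0.88 (limma adjusted p = 0.0645).

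For glutathione synthesis and turnover, 3 of 19 genes were lower and none higher (median -0.23). These were *Oplah*, which recycles 5-oxoproline to glutamate (-1.14, limma adjusted p = 0.0133), *Cth*, which forms cysteine (-1.0, limma adjusted p = 0.00942), and *Ggt6*, of the gamma-glutamyltransferase family (-0.95, limma adjusted p = 0.00708). The subunits of glutamate-cysteine ligase, the rate-limiting enzyme, did not pass (*Gclc* -0.39 and *Gclm* -0.28). Of 16 mercapturate and glutathione-linked genes 3 were higher and 1 lower (median -0.09). The higher ones were *Gpx3*, the secreted glutathione peroxidase (2.57, limma adjusted p = 0.000774), *Clic1*, a chloride channel protein with a glutathione transferase fold (2.18, limma adjusted p = 0.000834), and *Ltc4s*, the leukotriene C4 synthase of leukocytes (2.04, limma adjusted p = 0.0261). *Glo1*, which uses glutathione to remove methylglyoxal, was lower (-0.70, limma adjusted p = 0.0179).

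The other hepatic conjugation enzymes had the most negative median of the 8 lists, -0.56 over 17 genes, with 5 lower and none higher. Those with the largest changes were *Gm4952* (-1.13, limma adjusted p = 0.0273), *Bphl* (-0.94, limma adjusted p = 0.00702), *Inmt*, an indole methyltransferase (-0.85, limma adjusted p = 0.0377), and *Baat*, which joins bile acids to taurine or glycine (-0.75, limma adjusted p = 0.0206). *Bphl* is counted in this list although it is a hydrolase, a serine hydrolase that activates valacyclovir. *Gnmt*, the glycine methyltransferase, was at -0.63 (limma adjusted p = 0.0277). Of 12 transporters, which are ABC pumps except the bile salt uptake carrier *Slc10a1* (-0.47, not passed), 3 were higher and 4 lower (median -0.30). The higher ones included *Abcc1* (2.00, limma adjusted p = 0.00112) and *Abcc4* (1.38, limma adjusted p = 0.00906), which pump conjugates across the basolateral membrane. The lower ones were *Abcb4*, the canalicular phospholipid transporter (-1.27, limma adjusted p = 0.0234), *Abcc6* (-1.06, limma adjusted p = 0.0358), *Abcb11* (-1.05, limma adjusted p = 0.0157) and *Abcg2* (-0.81, limma adjusted p = 0.0139). *Abcc2*, the main canalicular pump for glucuronides and glutathione conjugates, was at -0.50 and did not pass (limma adjusted p = 0.112).

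Among 19 NRF2 target genes outside the transferases, 5 were higher and 1 was lower, with a median of 0.23. Beside *Abcc1*, they were led by *Hmox1*, heme oxygenase 1 (1.68, limma adjusted p = 0.00116), and *Pgd* of the pentose phosphate pathway (1.15, limma adjusted p = 0.0428), and *Me1*, the malic enzyme, was the lower gene (-1.36, limma adjusted p = 0.00479). *Nqo1* was at 0.62 (limma adjusted p = 0.173). *Hmox1* and *Abcc1* are also expressed in macrophages, whose markers rose on all 3 CSF1-Fc arrays. The part of those cells in their values, or in those of the other higher genes of the 8 lists, was not tested. Of 21 regulators 3 were lower and none higher (median -0.41): *Bcl6*, a repressor (-2.42, limma adjusted p = 0.0174), *Nr1i2*, which encodes the pregnane X receptor (-0.85, limma adjusted p = 0.0236), and *Nr1h4*, which encodes the bile acid receptor FXR (-0.75, limma adjusted p = 0.043). *Nfe2l2*, which encodes NRF2, did not pass (0.25, limma adjusted p = 0.551). Of the 30 calls in these lists, 9 held with PBS replicate 1 left out and 6 with PBS replicate 2 left out. Leaving out CSF1-Fc replicates 1, 2 and 3 in turn kept 13, 23 and 27. The 6 that held in each case were *Suox*, *Gpx3*, *Clic1*, *Hmox1*, *Me1* and *Abcc1*.

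**Figure D5:**
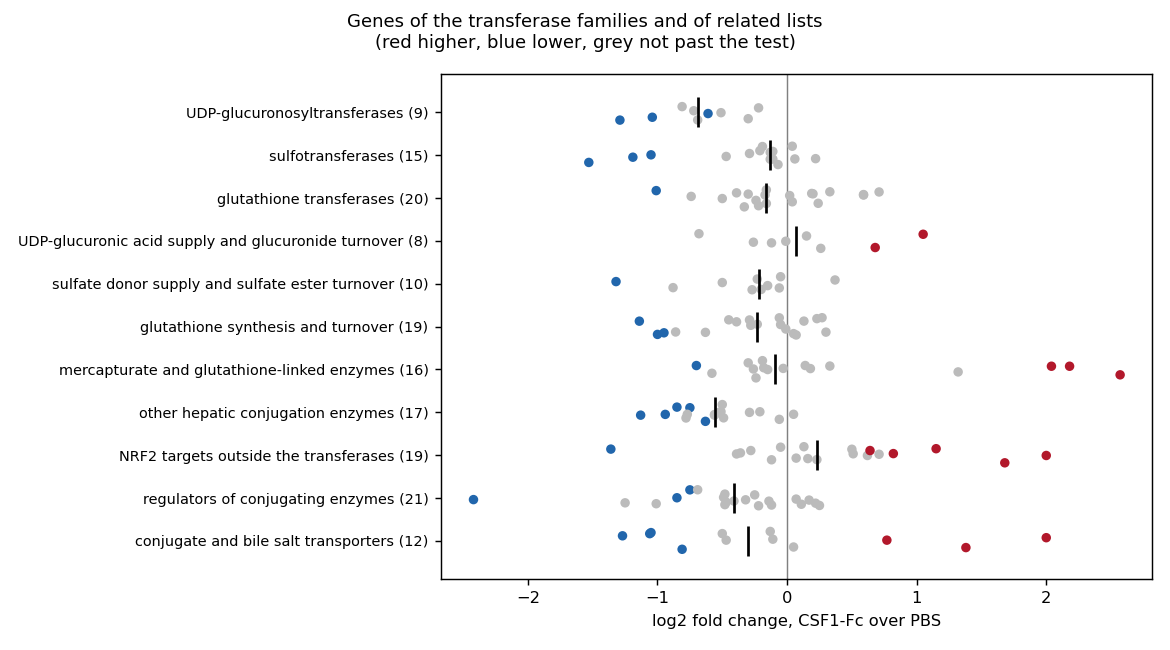
Log2 fold change (CSF1-Fc over PBS, horizontal axis) of each gene of the 3 transferase families and of the 8 related lists, with the number of genes in brackets; red points were higher, blue lower and grey did not pass, and the black bar is the median of the list. The medians run from -0.69 for the UDP-glucuronosyltransferases to 0.23 for the NRF2 targets.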

How the data were processed

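Liver RNA of 3 CSF1-Fc and 2 PBS mice was amplified, biotin-labelled and hybridised to 1-colour arrays. The deposited values are intensities on a linear scale that the authors normalized, 1 per transcript row, by a method not given in the sources used here. Affymetrix Expression Console 1.1 is named in the submitters' processing notes. For RNA extraction the labels name Trizol and the paper RNA Bee. The labels give no sex. Rows of Y-linked genes were bright and that of *Xist* was dim on all 5 arrays.

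The deposited intensities were converted to log2, without pseudocount or filter, and limma 3.58.1 was run on them in R 4.3.3 with lmFit, a mean for each group and eBayes (3 residual and 3.34 prior degrees of freedom). Benjamini-Hochberg adjustment covered 35556 rows, of which 21218 carry 1 symbol, 1881 several and 12457 are unnamed here. Symbols came from GEO's platform annotation and were updated by Entrez ID, which altered none of the 44. An exact permutation test of 3 against 2 arrays has 10 arrangements and cannot go below 0.1 one-sided. Each array is a separate mouse. The fit was tested on simulated data with changes of known size. Arrays have no read depth, so precision is set by the number of mice.

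The genes and lists were chosen with earlier results of these data known. Named were every gene that passed, the 3 brightest of each family and the largest change of each subfamily that did not pass. Of each list, up to 4 genes were named by size of change among those that passed. *Abcb11*, *Abcc2*, *Abcg2*, *Alb*, *Asgr2*, *C6*, *Gclc*, *Gclm*, *Gnmt*, *Hpd*, *Id3*, *Nfe2l2*, *Nqo1*, *Papss2*, *Slc10a1*, *Slc35d1*, *Ugcg*, *Ugdh*, *Ugt8a* and the remaining transferases were named after their values were seen. Promoter windows are RefSeq's (GRCm38.p6), aligned with Biopython 1.88. The array's build is not named, so no other coordinates are given. The fit was repeated on quantile-normalized values, after centring on array medians or on 26 secreted proteins, on rows of mean log2 of at least 5, on rows of 1 symbol, on the mean over a gene's rows, with an intensity trend and robust moderation, with unmoderated variances, with array weights (statmod 1.5.0), with replicate number as a block, with each mouse left out, and at an adjusted p under 0.1.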

Additional observations from a re-analysis of the deposited data

How the results depend on the processing

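No gene that passed changed sign under any alternative, and no family median did. The count of the 44 genes lower, 7 in the fit reported, was 12 on rows of a single symbol and 12 with the mean over rows (2 higher in each), 13 with array weights (2 higher), 11 at an adjusted p under 0.1 (1 higher) and 1 without moderation of the variance. It was 8 with a variance trend, quantile normalization or array-median centring, 6 centred on secreted proteins and 10 on rows of mean log2 of at least 5; 1 gene was higher with the trend, the secreted-protein centring and the filter. Genes lower were, for the UDP-glucuronosyltransferases, 6 on rows of a single symbol or with the mean over rows, 5 with the filter, array weights or an adjusted p under 0.1, and 1 without moderation. For the sulfotransferases 0 were lower without moderation, and the median was -0.76 with the filter. For the glutathione transferases 2 were lower with quantile normalization or the filter, 3 on rows of a single symbol, with the mean over rows or at 0.1, 4 with array weights and 0 without moderation. Of these, 2 were higher on rows of a single symbol, with the mean over rows and with array weights, and 1 with the filter, the trend, the secreted-protein centring or at 0.1, namely *Gstm3*, joined by *Mgst3* on rows of a single symbol and with the mean over rows and by *Gstm4* with array weights. With each mouse left out the counts lower ran over 1 to 8 for all 44, 0 to 5 for UDP-glucuronosyltransferases, 0 to 3 for sulfotransferases and 0 to 1 for glutathione transferases. The cause was not tested, beyond fewer rows being adjusted over with the filter or a single symbol. Leaving out a PBS mouse leaves 1, which is taken to vary like the CSF1-Fc mice.

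Deviations of same-numbered mice from their group means were not positively correlated (-0.0725 for replicate 1 and -0.249 for replicate 2). The 2 PBS arrays deviate from their mean by equal and opposite amounts, so these values are not independent of each other. They cannot show whether same-numbered mice were handled together. With the replicate number as a block 6 genes were lower (2 UDP-glucuronosyltransferases, 3 sulfotransferases and 1 glutathione transferase) and 0 higher, on 1 residual degree of freedom. Of the 7 genes 5 kept their call, *Ugt2b38* (limma adjusted p = 0.0566) and *Ugt2b5* (0.117) lost it, and *Ugt2a3* (0.0385) gained one. Over all rows 2052 were higher and 1133 lower. There were 2026 and 1446 with quantile normalization, 2369 and 711 centred on secreted proteins, where the median of all rows was 0.04 in place of -0.08, 3416 and 3805 with array weights, 550 and 127 without moderation and 2542 and 2205 at 0.1. With the filter there were 2090 and 1514, on rows of a single symbol 2227 and 1772, and with the mean over rows 2039 and 1709.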
